A study of Mus musculus with 38 samples.

Results

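Carcinomas of the MMTV-PyMT transplant model were compared with adenomas of the same model across all genes on the arrays. The comparison took every array titled carcinoma (6) and every array titled adenoma (5), 11 of the 38 arrays of the series and 11 of the 22 arrays of its progression experiment, whose remaining arrays held disseminated cells and lung metastases. The donors were 3-week-old female FVB/n mice that carried both MMTV-PyMT, in which a viral promoter active in mammary epithelium drives the polyoma middle T oncogene, and an actin-GFP transgene that marks donor cells of any type. Their hyperplasias were placed into the cleared No. 4 fat pads of FVB/n females without transgenes. The study describes outgrowths of 5 weeks as adenoma and of 18 weeks as carcinoma and names no drug for either group, so stage and time since transplantation differ together. GFP-positive cells were sorted from digested tumors, and their RNA was amplified in 2 rounds. It was labeled with Cy5 and hybridized against a Cy3-labeled Universal mouse reference, with no dye swap. The methods state 5 samples per group, whereas the series holds 6 carcinomas, and the labels do not say whether any samples shared an animal or a donor hyperplasia. The p-values below therefore measure the spread between these samples.

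Middle T binds Src family kinases, phosphatidylinositol 3-kinase and Shc and thereby acts much like a constantly active growth factor receptor. Mammary lesions in this model begin as hyperplasia, pass through adenoma and become invasive carcinoma. Interferon-gamma, made mostly by T and NK cells, induces the immunity-related GTPases, the guanylate-binding proteins, the chemokines Cxcl9, Cxcl10 and Cxcl11 and the machinery of antigen presentation.

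Every value below is a log2 ratio of tumor to reference RNA for a single probe, which gives no order of amount between genes. In the Cy5 channel, 48.4 to 75.5% of spots in adenoma and 67.5 to 76.7% in carcinoma exceeded background clearly, by the scanner software's own flag. Carcinoma lay on 3 slides and adenoma on 3 others, scanned on another day, and no slide or day held both groups. Slide, scan day and group cannot be told apart, and this touches every difference given here. Carcinoma replicate 6 stood apart from its group, since its correlations with them had a median of 0.760, whereas this median was 0.939 to 0.959 for each of the others and 0.863 to 0.914 for the adenomas. The mean of 24 macrophage genes was 4.59 in this sample, -0.60 to 0.59 in the other carcinomas and -0.14 to 0.40 in adenoma. Results are therefore given with all 6 carcinomas and, where this matters, without replicate 6.

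Among 28786 genes tested with limma, 949 (3.3%) were called different, with a Benjamini-Hochberg adjusted p below 0.05 and at least a 2-fold change. Of these, 332 (1.15% of all genes) were higher and 617 (2.14%) lower in carcinoma, and 44 and 63 reached the 4-fold level. The share of calls that were higher was 35.0%, against 48.0% from the signals as processed by the scanner software and 46.8% with median centring within arrays. Without a fold threshold 3361 genes passed, and the majority of them, 1988, were higher in carcinoma. Without replicate 6 the calls were 950 (3.3%), 391 (1.36%) of them higher and 559 (1.94%) lower. 768 genes were called both ways, none of them in opposite directions, 181 only with replicate 6 and 182 only without it. Without adenoma replicate 3, 645 genes were called, 212 of them higher. The groups did not overlap at 696 of the 949 called genes, and at 10.5% of all genes. The median log2 change of all genes was 0.06.

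**Figure D1:**
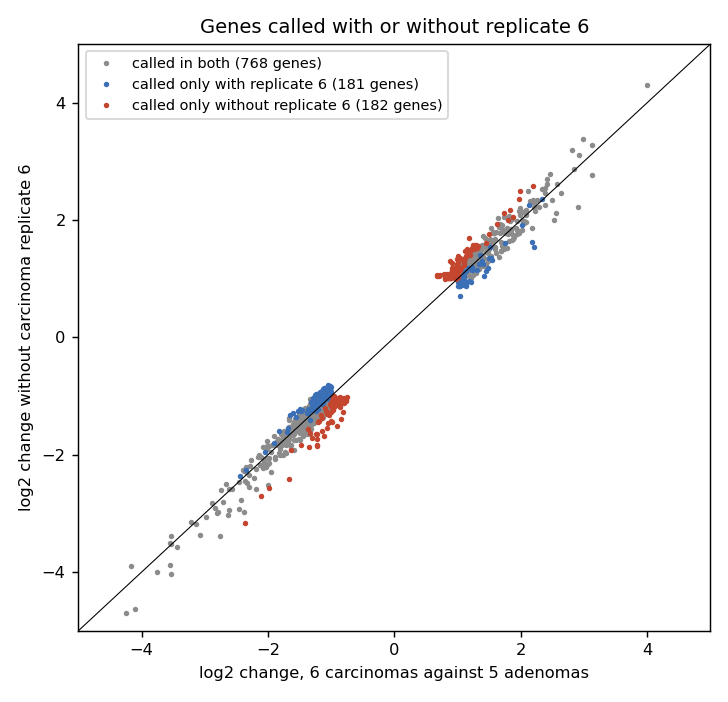
Log2 change from adenoma to carcinoma with all 6 carcinomas (horizontal axis) and without carcinoma replicate 6 (vertical axis) for each gene called in at least 1 of them, with a line of equality. The 768 genes called both ways (grey) keep their sign, and the genes called in only 1 setting (181 blue, 182 red) lie mostly near the 2-fold threshold.

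The same reference RNA was present on every array, so the Cy3 channel should hold the same level in both groups. By itself it gave 34 called genes (0.118%), 30 of them lower on the carcinoma arrays, and 21 of the 949 called genes had a Cy3 difference of at least 1 on the log2 scale. Without a fold threshold, the Cy3 difference had a limma adjusted p below 0.05 at 3799 of all 28786 genes. Of the 949 called genes, 305 were among these. With the Cy5 channel alone 713 genes were called, and 502 of the 949 (52.9%) were among them. The Cy3 difference is given below beside the called genes described at which it reached 1 and at some with less, and its part in the ratios was not tested. Both single channels were normalized between arrays by limma's Aquantile method, and the ratios by its quantile method. The Cy3 and Cy5 differences of a gene therefore need not add up to its log2 change.

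The largest falls included those of the interferon targets Cxcl9, Ubd and Iigp1 and of the T and NK cell genes Il2rb, Nkg7 and Cd3d, beside those of probes for Pigt, Smoc2 and BC064078, which belong to no list used here. The largest rises included those of Hp and Slpi of the acute phase list, the chemokine Cxcl1 and the hypoxia gene Ddit4, and the other 8 of the 12 were of genes on none of the lists. The 12 largest rises and 12 largest falls below were taken among the 463 called genes with a reference symbol that did not overlap between groups and were well above background on all 11 arrays.

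**Figure D2:**
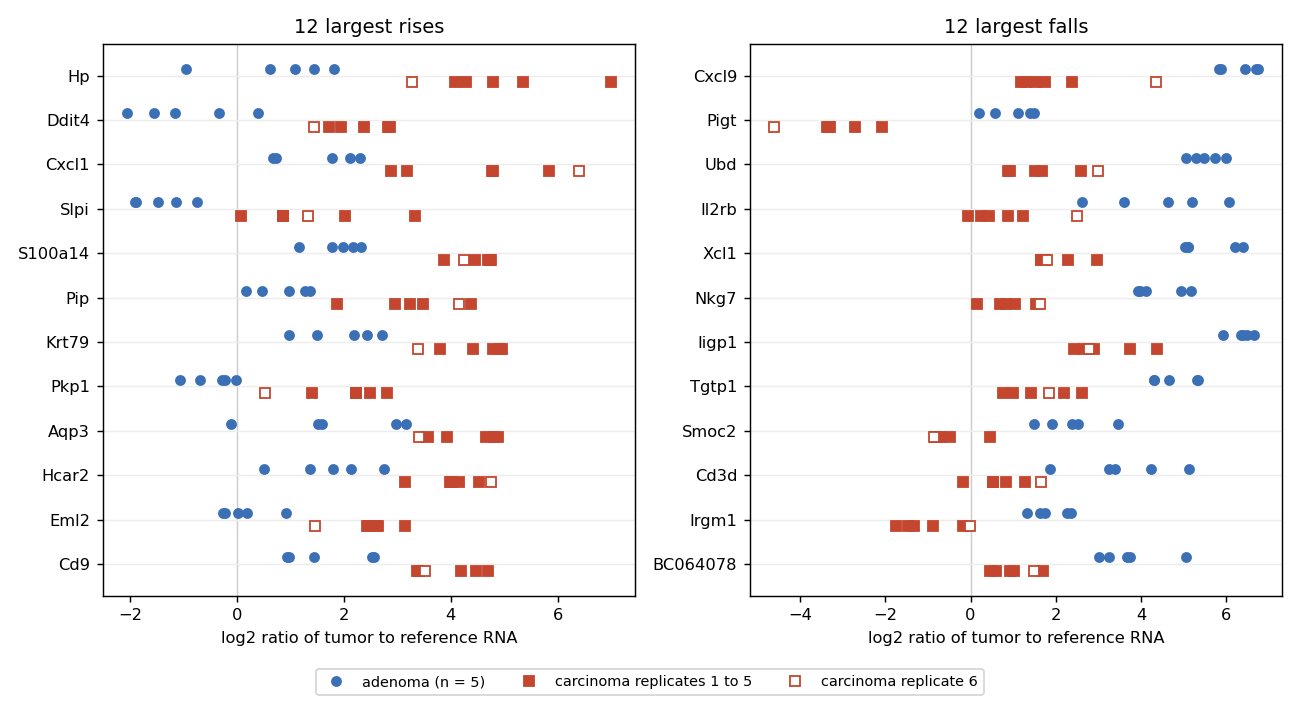
Log2 ratio of tumor to reference RNA (horizontal axes) in each sample for the 12 largest rises and 12 largest falls, with adenoma as circles, carcinoma replicates 1 to 5 as filled squares and carcinoma replicate 6 as open squares. The groups do not overlap at any of these genes because the choice required it, and for Cxcl9 and Il2rb replicate 6 is the carcinoma nearest to adenoma.

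Interferon-inducible GTPases and interferon chemokines were lower in carcinoma almost as a whole. Of 20 such genes measured, 19 fell, none rose and the median log2 change was -2.20, against 2.14% lower calls and a median of 0.06 over all genes. Cxcl9, a chemokine that attracts T cells, stood at 5.83, 6.75, 6.71, 6.44 and 5.87 in adenoma replicates 1 to 5. In carcinoma it ranged from 1.19 to 4.35 with a median of 1.62, the highest value being that of replicate 6. All carcinomas lay below all adenomas, and Cxcl9 fell 18.9-fold (log2 change -4.24, standard error 0.629, adjusted p = 0.000477), with a difference between the groups' arrays of -1.71 in the Cy3 channel and -4.98 in the Cy5 channel. With the scanner software's processed signals its change was -1.80 and it was no longer called (adjusted p = 0.0516). Cxcl11, a chemokine for the same receptor, fell by 4.11 (adjusted p = 0.00482), from a mean of 4.82 ± 0.91 (SD, n = 5) to 0.71 ± 1.33 (SD, n = 6), and it was well above background on 4 of 6 carcinoma arrays. The third member, Cxcl10, was the only gene of the list not called. It had 3.23 to 5.70 in adenoma, 0.95 to 2.26 in carcinoma replicates 1 to 5 and 6.002 in replicate 6, and its log2 change of -2.37 (adjusted p = 0.155) became -3.16 (adjusted p = 0.0366) without that sample, when all 20 genes were called.

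The immunity-related GTPases, which attack the vacuoles of intracellular pathogens, fell at every member measured. Iigp1 was 6.49, 6.35, 6.398, 5.92 and 6.65 in the adenomas and 2.42 to 4.37, median 2.84, in the carcinomas, 2.79 of them in replicate 6. The groups were well separated, and it fell by 3.21 (standard error 0.564, adjusted p = 0.00156) with a Cy3 difference of -0.09. Irgm1, a regulator of the same family, was 2.27, 1.74, 1.33, 1.62 and 2.35 in the adenomas. In the carcinomas it was -1.74 to -0.00, median -1.10, with replicate 6 the highest. Its groups did not overlap, and it fell by 2.79 (standard error 0.391, adjusted p = 0.000329). Tgtp1 fell by 3.14 (adjusted p = 0.00187), from 4.30 to 5.35 in adenoma to 0.77 to 2.63 in carcinoma, but a second probe of the gene, well above background on all 11 arrays as well, changed by only -0.43. Igtp fell by 2.62. All 9 guanylate-binding proteins on the list fell, with changes from -1.16 for Gbp8, which was well above background on 6 of the 11 arrays, to -2.99 for Gbp4. Ubd, a ubiquitin-like protein induced by interferon-gamma, was 5.49, 5.29, 5.996, 5.73 and 5.06 in the adenomas and 0.87 to 2.99, median 1.59, in the carcinomas, replicate 6 having the highest. It fell 13.5-fold (log2 change -3.75, adjusted p = 0.000955), with differences of -2.66 in the Cy3 channel and -6.37 in the Cy5 channel.

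The promoters of these GTPases are shown to describe a motif of interferon-inducible genes. The list was chosen as interferon-inducible, so its share of the motif describes the list and is no independent evidence for the falls. The letters GAAA, any pair of bases and again GAAA, a motif bound by interferon regulatory factors, were searched on both strands from 250 bases before to 50 after each start in RefSeq (GRCm38.p6), where 14619 of the 28786 genes had 18139 promoters. They occurred in 9 of the 13 promoters of the 12 matched genes among the 19 that fell (69.2%), in 3.3% of all promoters, in 5.84% of those of genes called lower and in 1.58% of those of genes called higher. Without the genes of this list the share among genes called lower was 4.13%. Below, the 150 bases before the start are given from 5′ to 3′ on the gene's strand. Only promoters with a match there were chosen for display, and Iigp1 is not among the genes shown. Capitals mark the match, or its reverse complement in Gbp3. Irgm1 and Gbp3 hold a pair of matches that overlap each other, and no other motif was marked.
Tgtp1 (chr11:48992247-48992396, minus strand): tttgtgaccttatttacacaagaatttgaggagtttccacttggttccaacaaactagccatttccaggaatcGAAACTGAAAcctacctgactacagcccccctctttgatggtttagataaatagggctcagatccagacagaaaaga
Irgm1 (chr11:48871421-48871570, minus strand): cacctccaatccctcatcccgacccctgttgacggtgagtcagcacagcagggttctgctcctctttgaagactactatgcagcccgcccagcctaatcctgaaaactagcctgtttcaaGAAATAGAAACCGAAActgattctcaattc
Igtp (chr11:58199406-58199555, plus strand): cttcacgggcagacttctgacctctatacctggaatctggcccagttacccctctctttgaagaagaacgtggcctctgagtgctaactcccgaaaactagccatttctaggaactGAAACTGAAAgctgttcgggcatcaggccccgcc
Gbp3 (chr3:142559894-142560043, plus strand): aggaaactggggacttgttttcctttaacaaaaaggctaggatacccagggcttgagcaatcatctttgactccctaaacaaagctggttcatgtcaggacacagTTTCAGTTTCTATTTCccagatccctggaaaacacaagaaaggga
The match began 77 bases before the start in Tgtp1, 34 in Igtp and, for the nearer one, 24 in Irgm1 and 39 in Gbp3. A match is a description of the letters and not of a bound site.

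The list of interferon signaling factors had a smaller median change than these targets. It holds receptor chains, kinases and transcription factors, and also Socs1, Ido1 and Cd274, so it is not made of upstream factors alone. Of 18 interferon signaling factors 2 fell and none rose, with a median of -0.53. Stat2, a transcription factor activated by type I interferon, was -0.47, -0.93, -0.26, -1.45 and -0.80 in the adenomas and -3.12 to -1.51, median -2.79, in the carcinomas. The groups did not overlap, and Stat2 fell by 1.86 (adjusted p = 0.00114). Ciita, the master activator of MHC class II genes, fell by 2.08 (adjusted p = 0.00690). Irf8 changed by -1.98 without a call (adjusted p = 0.0573), and without replicate 6 it was called with a change of -2.57 (adjusted p = 0.00545). Changes of the receptor chains stayed between -0.60 for Ifngr1 and 0.26 for Ifnar2, and neither was called. Among 37 antiviral effectors 7 fell and 1 rose, with a median of -0.58. The falls included Uba7, the enzyme that starts ISG15 conjugation (-1.56, adjusted p = 0.000396), and Mx2 (-1.72, adjusted p = 0.0189). The fall of Oas2 (-1.83, adjusted p = 0.0112) was small at its second probe (-0.33), and the only rise was that of Ifi27 (1.56, adjusted p = 0.0192).

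Antigen presentation genes were lower as well, with few calls. For MHC class I, 2 of 18 genes fell, 16 had a negative change, and the median was -0.80. Psmb10, a subunit of the immunoproteasome, fell by 1.28 (adjusted p = 0.00194), from 1.14 to 1.85 in adenoma to -0.17 to 0.96 in carcinoma. Calreticulin (Calr) fell by 1.25 (adjusted p = 0.00133) at 1 probe and changed by -0.09 at another. For MHC class II the result depended on replicate 6 and on the scaling. With all carcinomas 3 of 11 genes fell and the median was -1.01, and without replicate 6 5 fell and the median was -1.29. With all carcinomas 1 fell with the processed signals or in the deposited matrix and none without normalization between arrays, with medians of -0.98, -0.90 and -0.85. H2-Aa, a class II alpha chain, was 5.51, 6.95, 6.29, 5.97 and 5.42 in the adenomas. It was 2.64 to 3.46 in carcinoma replicates 1 to 5 and 5.93 in replicate 6, which lay within the adenoma range. H2-Aa fell by 2.45 (standard error 0.511, adjusted p = 0.00499) with all carcinomas and by 2.92 without replicate 6, with a Cy3 difference of -1.01 and a Cy5 difference of -2.28 that was not called (adjusted p = 0.148). Its change was -0.98 with the processed signals and -1.27 without normalization between arrays, and it was called with neither. Cd74, the invariant chain, had a change of -2.10 (adjusted p = 0.115) and fell by 2.71 (adjusted p = 0.0299) without it.

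Some genes of T and NK cells fell with the interferon targets, others had negative changes without a call, and others changed little. Of 23 genes on the list 5 fell and none rose, the median being -0.33, and 2 fell without normalization between arrays and 3 in the deposited matrix. Il2rb, a chain of the interleukin 2 and 15 receptors, was 4.63, 2.61, 6.06, 5.20 and 3.60 in the adenomas and -0.07 to 2.50, median 0.65, in the carcinomas, highest in replicate 6. It fell by 3.55 (standard error 0.652, adjusted p = 0.00216), and its lowest adenoma still lay just above its highest carcinoma. Nkg7, a protein of cytotoxic granules, was 4.12, 3.92, 5.18, 4.93 and 3.97 in the adenomas and 0.16 to 1.64, median 0.94, in the carcinomas. With no overlap it fell by 3.44 (standard error 0.443, adjusted p = 0.000182), and a second probe gave -2.82. Cd3d, a chain of the T cell receptor complex, was 3.40, 1.87, 5.14, 4.24 and 3.26 against -0.18 to 1.66, median 0.68. It fell by 2.81 (adjusted p = 0.0231) with no overlap, but was called in only 24 of 30 alternative settings, and not without adenoma replicate 3. Cd3g, another chain of that complex, fell by 1.39 (adjusted p = 0.0268), also with no overlap. Ifng itself was 4.44, 1.35, 5.58, 5.54 and 4.12 in the adenomas and 0.20 to 1.62, median 0.59, in the carcinomas. Adenoma replicate 2 overlapped with the carcinomas, and Ifng fell by 3.54 (standard error 0.742, adjusted p = 0.00523). Xcl1, a chemokine of activated T and NK cells that was not on the list, fell by 3.55 (adjusted p = 0.000165), with 5.04 to 6.39 in adenoma and 1.65 to 2.97 in carcinoma, whereas its change was -1.13 (adjusted p = 0.437) with the processed signals. The defining marker Cd3e was 0.41 to 1.24 in adenoma and 0.89 to 1.30 in carcinoma (log2 change 0.26, adjusted p = 0.287). Cd4 (0.30), Cd8a (-0.11), Gzma (-0.08) and Gzmb (-0.21) were not called, and Klrk1 and Ncr1 were not well above background on any array. Larger negative changes without a call were those of Lck (-1.29), Klrd1 (-1.20) and Cd247 (-1.04). Without carcinoma replicate 6 Klrd1 was called (-1.43, adjusted p = 0.0277). The mean of the list was 0.40 to 1.33 in adenoma and -0.05 to 0.43 in carcinoma. The sort was for GFP-positive donor cells, a gate meant to leave out lymphocytes of the recipients, and no purity is given for it. In bulk RNA fewer cells of a type and less RNA per cell cannot be told apart, and the part of such cells in the lower interferon targets was not tested.

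**Figure D3:**
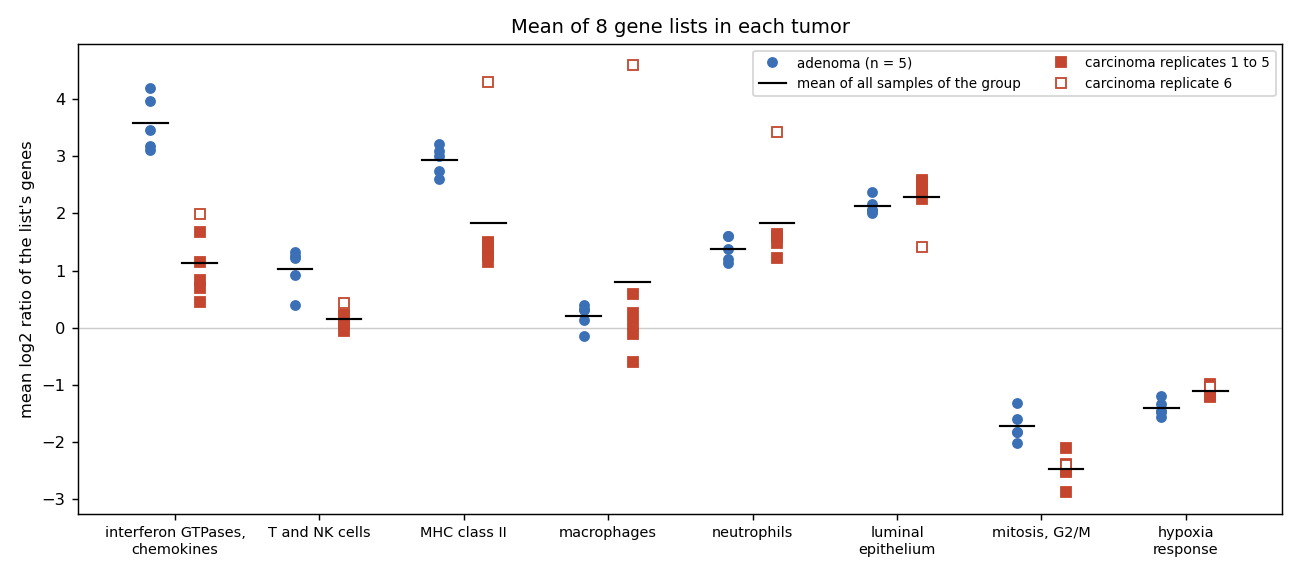
Mean log2 ratio of tumor to reference RNA (vertical axis) over the genes of 8 lists in each sample, with adenoma as circles, carcinoma replicates 1 to 5 as filled squares, replicate 6 as open squares and group means over all samples as lines. The interferon list lies at 3.11 to 4.20 in adenoma and 0.45 to 1.98 in carcinoma, and replicate 6 is far above the other carcinomas for macrophage, neutrophil and MHC class II genes.

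Other cell types left few called genes by count, and over all genes 1.15% were called higher and 2.14% lower. Short lists with 1 or 2 calls, such as those of fibroblasts and red blood cells, lay above these shares. None of the 24 macrophage genes was called, and their median of 0.55 became -0.10 without replicate 6. Cd68, a lysosomal protein of macrophages, was -1.95 to -1.66 in adenoma, -1.55 to -0.91 in carcinoma replicates 1 to 5 and 2.75 in replicate 6. Adgre1, which encodes F4/80, was -2.87 to -1.31 in those carcinomas and 3.39 in replicate 6. None of 15 neutrophil genes, 10 dendritic cell genes and 10 B cell genes was called. The neutrophil median was 0.51 with all carcinomas and 0.13 without replicate 6. S100a9 (2.16, adjusted p = 0.105) and S100a8 (-1.05, adjusted p = 0.334), which form a heterodimer in myeloid cells, had changes of opposite sign, neither past the test. Of 16 endothelial genes 15 had a positive change, and 1 was called. Their median was 0.65 (0.53 without replicate 6), against 0.06 over all genes. The called gene was Emcn, a sialomucin of capillary and venous endothelium, at 0.99, 0.11, 0.18, -0.04 and 0.83 in adenoma and 0.92 to 2.94, median 2.61, in carcinoma. It rose by 1.88 (standard error 0.378, adjusted p = 0.00402), with the lowest carcinoma just inside the adenoma range and 3 of 5 adenomas well above background. Pecam1 stood out in the other direction (-0.64, adjusted p = 0.494), with adenoma replicate 4 at 1.62 and the other 4 adenomas between -1.02 and -0.68. Of 18 fibroblast genes 2 fell, and the median was -0.64. Col1a1 fell by 2.07 (adjusted p = 0.0135), from -5.02 to -3.27 in adenoma to -7.08 to -5.83 in carcinoma, with changes of -1.34 and -0.42 at its other probes, and Pdgfra fell by 1.06 (adjusted p = 0.0317), with 0.06 at its other probe. In red blood cell genes, Hbb-bt rose by 2.03 (adjusted p = 0.00330) and Hba-a1 by 1.17 (adjusted p = 0.0313), 2 of the 9 measured. Fabp4, a lipid carrier of adipocytes, macrophages and endothelium, rose by 2.55 (adjusted p = 0.00513), reaching 4.72 in replicate 6, and by 2.12 without it. It was the single call among 12 adipocyte and 9 alveolar macrophage genes, both of which list it, and Adipoq was not well above background on any array.

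Genes of the cell division cycle were lower in carcinoma, by small steps in most of them. Of 40 genes of mitosis and G2/M, 38 had a negative change, 9 fell and none rose, with a median of -0.70 (4 falls and -0.69 in the deposited matrix). The list mean was -2.02 to -1.32 in adenoma and -2.88 to -2.11 in carcinoma, so the groups did not overlap. Top2a, the topoisomerase that untangles replicated chromosomes, was -1.91, -1.77, -1.03, -1.73 and -1.20 in the adenomas and -3.85 to -1.93, median -2.89, in the carcinomas. It fell by 1.31 (standard error 0.311, adjusted p = 0.0108), the nearest carcinoma being replicate 6. Mki67, the proliferation marker Ki-67, fell by 1.04 (adjusted p = 0.0315), and its replicate 6 lay among the adenomas at -2.92. The motor protein Cenpe fell by 1.16 (adjusted p = 0.0221). Ndc80 and Anln were called as well, but were well above background on no more than 3 of 11 arrays, so no fold is given for them. The letters CCAAT were present on either strand in 6 of 8 promoters of these called genes, in 42.3% of promoters of all genes called lower, in 29.6% of those called higher and in 37.9% of all promoters.

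For DNA replication and G1/S, 5 of 47 genes fell and 2 rose, with a median of -0.40. The falls were those of Uhrf1, which recruits Dnmt1 to replicating DNA (-1.496, adjusted p = 0.00103), the replicative helicase subunits Mcm3, Mcm6 and Mcm7 (-1.02, -1.12 and -1.29) and the ribonucleotide reductase subunit Rrm2 (-1.06). The rises were those of cyclin-dependent kinase inhibitors. Cdkn1a, which encodes p21, was 0.58, 0.72, 0.40, 1.06 and 0.50 in the adenomas and 1.25 to 3.92, median 2.85, in the carcinomas, with 3.20 in replicate 6. All carcinomas exceeded all adenomas, and Cdkn1a rose 4.13-fold (log2 change 2.05, standard error 0.366, adjusted p = 0.00184). Cdkn2b, which encodes p15, was -1.63, -2.26, -1.09, -2.50 and -1.55 in the adenomas and -0.98 to 0.72, median -0.02, in the carcinomas. It rose by 1.78 (standard error 0.463, adjusted p = 0.0183), although its highest adenoma and lowest carcinoma lay close together. Cdkn1a is also a target of p53, and of 30 p53 targets 3 rose and 1 fell (median 0.17). The others called were Dcxr (1.47), Zmat3 (1.18) and, lower, Plk2 (-1.37, adjusted p = 0.00292), whereas Mdm2 changed by 0.02 and was not called.

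Genes of the amino acid response, which Atf4 induces when amino acids are scarce or proteins misfold, fell where they were called. Of 26 genes of endoplasmic reticulum and integrated stress 4 fell and none rose, with a median of -0.25 (-0.49 without replicate 6). Chac1, which degrades glutathione, was 1.06, 1.496, 1.48, 1.25 and 1.29 in the adenomas and -2.19 to -0.83, median -1.28, in the carcinomas, lowest in replicate 6. The adenomas lay close together and far above every carcinoma, and Chac1 fell by 2.66 (standard error 0.421, adjusted p = 0.000764). Asns, asparagine synthetase, was -2.56, -1.91, -1.17, -1.94 and -1.90 against -4.91 to -3.26, median -3.63. It fell by 1.91 (standard error 0.303, adjusted p = 0.000786). Phgdh, the first enzyme of serine synthesis, fell by 1.52 (adjusted p = 0.0330) and was not called without replicate 6 (-1.25, adjusted p = 0.0634). Trib3 fell by 1.36 (adjusted p = 0.0156), with 0.19 at its other probe. Myc, the transcription factor, was 0.95, 0.38, 0.06, -0.17 and 0.85 in the adenomas and -2.22 to -1.23, median -1.51, in the carcinomas. Its groups did not overlap, and it fell by 1.99 (standard error 0.344, adjusted p = 0.00145), with -1.99 and -0.76 at its other probes and a Cy3 difference of 0.73. It belongs to the 24 immediate early genes, of which Ier5 also fell (-1.12) and Nr4a1 rose (2.02, adjusted p = 0.0425), the latter with a Cy3 difference of -0.93 and no call without replicate 6.

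Acute phase genes changed in both directions. Of 27 genes of the acute phase and complement 4 rose and 3 fell, with a median of 0.05. Hp, haptoglobin, was 1.09, 0.62, -0.95, 1.44 and 1.82 in the adenomas and 3.27 to 6.996, median 4.53, in the carcinomas, with the lowest value in replicate 6. All carcinomas were above all adenomas, and Hp rose 15.9-fold, the largest rise of all genes (log2 change 3.99, standard error 0.715, adjusted p = 0.00184). Slpi, a secreted inhibitor of leukocyte proteases, was -1.89, -1.47, -1.14, -0.76 and -1.90 in the adenomas and 0.08 to 3.33, median 1.10, in the carcinomas. It rose by 2.85 (standard error 0.689, adjusted p = 0.0121) with a Cy3 difference of -0.94. Lcn2 (1.39) and Saa2 (1.77) also rose, but their Cy3 differences were -1.07 and -1.89 and their Cy5 differences -0.15 and -0.81, so neither was higher in the tumor channel alone. The falls were those of complement C3 (-1.90, adjusted p = 0.0217, with -0.21 at another probe), Pigr (-1.66, adjusted p = 0.0215) and Serpina3g (-3.53, adjusted p = 0.00334), a serpin that is itself induced by interferon-gamma.

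Both chemokines called as higher attract neutrophils, and both were highest in replicate 6. Of 27 neutrophil chemokines and inflammatory cytokines 2 rose, and the median was 0.45 (0.32 without replicate 6). Cxcl1 was 2.12, 2.30, 0.68, 0.73 and 1.78 in the adenomas and 2.88 to 6.403, median 4.78, in the carcinomas. The lowest carcinoma lay above the highest adenoma, and Cxcl1 rose by 3.12 (standard error 0.781, adjusted p = 0.0147), and by 2.77 (adjusted p = 0.0286) without replicate 6. Cxcl2 was 0.11 to 1.96 in adenoma and 1.53 to 6.62 in carcinoma. It rose by 2.21 (adjusted p = 0.0459), and without replicate 6 its log2 change of 1.55 was not called (adjusted p = 0.0649). Il6 changed by 1.72 and Il33 by 1.73 without a call.

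Hypoxia response genes that passed the test all rose, whereas the list as a whole was split. Of 30 genes 5 rose and none fell, 18 had a positive change, and the median was 0.31. Ddit4, an inhibitor of mTORC1 induced by hypoxia and other stresses, was -1.54, 0.39, -1.16, -0.33 and -2.06 in the adenomas and 1.44 to 2.85, median 2.15, in the carcinomas. It rose by 3.13 (standard error 0.729, adjusted p = 0.00991) with no overlap, and the differences were -1.501 in Cy3 and 1.49 in Cy5. Ankrd37 was -2.84, -2.49, -2.76, -2.58 and -2.93 in the adenomas and -1.72 to -0.26, median -0.95, in the carcinomas. The adenomas lay close together and below every carcinoma, and Ankrd37 rose by 1.72 (standard error 0.422, adjusted p = 0.0129) with no Cy3 difference (-0.00). Ero1a, an oxidase that forms disulfide bonds in the endoplasmic reticulum, was -2.28, -1.98, -2.07, -2.32 and -1.98 against -1.25 to -0.31, median -0.86. It rose by 1.32 (standard error 0.201, adjusted p = 0.000549). Adm, the vasodilator adrenomedullin, rose by 1.52 (adjusted p = 0.0248) and Bnip3, a mitophagy receptor, by 1.30 (adjusted p = 0.0109). Vegfa (0.30), Car9 (0.79) and Hif1a (-1.10) were not called. In glycolysis 2 of 20 genes rose and the median was 0.28. The lactate exporter Slc16a3 was -3.24, -3.15, -1.94, -2.64 and -3.28 in the adenomas and -1.41 to 0.89, median -0.97, in the carcinomas, and it rose by 2.18 (standard error 0.438, adjusted p = 0.00394). Pgk1 rose by 1.02 (adjusted p = 0.0484) and was not called without replicate 6 (adjusted p = 0.0867).

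The core of the hypoxia response element, ACGTG on either strand, was present in 4 of the 5 promoters of the called hypoxia genes, in 26.1% of promoters of genes called higher, in 23.9% of genes called lower and in 22.1% of all. It is a short sequence and frequent in any set. The list was chosen as hypoxia-responsive, so its share is no independent evidence for the rises. It is shown for Ankrd37 and Ero1a over the 150 bases before the start, 5′ to 3′ on the gene's strand, with the match or its reverse complement in capitals (RefSeq, GRCm38.p6).
Ankrd37 (chr8:45999851-46000000, minus strand): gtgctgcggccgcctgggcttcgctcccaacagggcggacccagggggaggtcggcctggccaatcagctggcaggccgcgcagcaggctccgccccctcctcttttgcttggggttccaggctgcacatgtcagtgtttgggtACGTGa
Ero1a (chr14:45318573-45318722, minus strand): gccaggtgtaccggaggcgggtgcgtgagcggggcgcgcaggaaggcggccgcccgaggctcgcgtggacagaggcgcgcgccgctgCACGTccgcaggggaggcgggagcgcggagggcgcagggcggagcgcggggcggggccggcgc

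Epithelial genes changed singly rather than by lineage. Of 28 luminal genes 1 rose and of 24 basal genes 2 rose and 1 fell, with medians of 0.05 and 0.01. Among defining markers, Krt8 (0.95), Krt18 (0.56), Epcam (1.03), Krt5 (0.52) and Krt14 (0.01) were not called, and all were above the reference in every sample. In replicate 6 Krt8 was 1.77 and Krt18 0.96, each below all other samples. Areg, an Egfr ligand with a role in ductal growth, was -0.14, 1.59, -1.05, 1.15 and -0.16 in the adenomas and 0.87 to 4.17, median 2.00, in the carcinomas. The groups overlapped, and Areg rose by 1.93 (standard error 0.524, adjusted p = 0.0226), the only call among 14 receptors and ligands of the Erbb family, where Egfr itself changed by -1.48 (adjusted p = 0.0671). Krt15, a keratin of basal and progenitor cells, was 0.08, -0.25, -0.33, -0.16 and 0.87 against 1.57 to 3.29, median 2.01. Without overlap it rose by 2.21 (standard error 0.62, adjusted p = 0.0264). Igfbp2 rose by 1.39 and smooth muscle actin, Acta2, fell by 1.19, the latter with changes between -1.53 and 0.31 at its other probes. Of 23 milk protein and lactation genes 2 fell and none rose, with a median of -0.59. This depended on the scaling, since none was called without normalization between arrays (median 0.15) or with the processed signals (-0.08), and 1 fell in the deposited matrix (-0.13). Glycam1 was 2.30, 5.76, 6.32, 6.24 and 3.14 in the adenomas and 0.38 to 2.92, median 0.56, in the carcinomas. It fell by 3.54 (standard error 0.944, adjusted p = 0.0210) with 1 adenoma inside the carcinoma range. Lalba, which makes lactose synthesis possible, fell by 1.91 (adjusted p = 0.0452) and was not called without replicate 6, and the caseins Csn2 (-2.34) and Csn1s2a (-2.40) were not called.

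The remaining large rises were those of 8 genes on none of the lists. S100a14, a calcium-binding protein of epithelia, was 1.99, 1.17, 2.16, 1.79 and 2.32 in the adenomas and 3.88 to 4.76, median 4.57, in the carcinomas. It rose by 2.58 (standard error 0.688, adjusted p = 0.0210) with no overlap, but was not called without adenoma replicate 2 (adjusted p = 0.0571). Pip, prolactin-inducible protein, was 1.27, 0.17, 0.46, 0.98 and 1.36 against 1.87 to 4.38, median 3.35, and rose by 2.50 (adjusted p = 0.0111). Hcar2, a receptor for beta-hydroxybutyrate and niacin, was 1.80, 2.74, 1.37, 0.50 and 2.14 against 3.14 to 4.76, median 4.09. Its groups did not overlap, and it rose by 2.39 (standard error 0.398, adjusted p = 0.00114), the lowest adjusted p among the 12 largest rises. Krt79, a keratin of hair follicle and sebaceous gland ducts, was 2.19, 2.71, 2.44, 0.98 and 1.501 against 3.38 to 4.97, median 4.61. It rose by 2.42 (adjusted p = 0.0126) with its lowest carcinoma value in replicate 6. Eml2, a microtubule-binding protein, was -0.23, 0.91, 0.02, 0.18 and -0.26 against 1.46 to 3.15, median 2.53, and rose by 2.33 (adjusted p = 0.00145). Pkp1, a plakophilin of desmosomes, and Aqp3, a channel for water and glycerol, rose by 2.41 (adjusted p = 0.0458) and 2.39 (adjusted p = 0.0404), and were called in 14 and 20 of 30 alternative settings. The tetraspanin Cd9 rose by 2.26 (adjusted p = 0.0198) with a Cy3 difference of -0.86, while its other probes changed by 0.29 and -0.01.

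For Smoc2 and Pigt, as for Tgtp1, a second probe of the gene did not show the fall. Smoc2, a secreted calcium-binding matrix protein, was 1.91, 2.38, 3.47, 2.53 and 1.49 in the adenomas and -0.86 to 0.47, median -0.75, in the carcinomas. The groups did not overlap and it fell by 2.89 (standard error 0.318, adjusted p = 4.22e-05), whereas a second probe, well above background on 7 of 11 arrays, changed by -0.26. The probe assigned to Pigt, a subunit of the enzyme that attaches lipid anchors to proteins, was 0.20, 0.56, 1.48, 1.38 and 1.11 against -4.61 to -2.08, median -3.30. It fell by 4.17 (standard error 0.605, adjusted p = 0.000392) with differences of 2.78 in the Cy3 channel and -2.21 in the Cy5 channel, and another Pigt probe changed by 0.06. The array file places both probes on chromosome 17 (mm7) and RefSeq places the gene on chromosome 2 (GRCm38.p6), so this fall cannot be assigned to Pigt with certainty. BC064078, of unknown function here, fell by 2.71 (adjusted p = 0.000358), from 3.01 to 5.05 in adenoma to 0.45 to 1.71 in carcinoma.

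**Figure D4:**
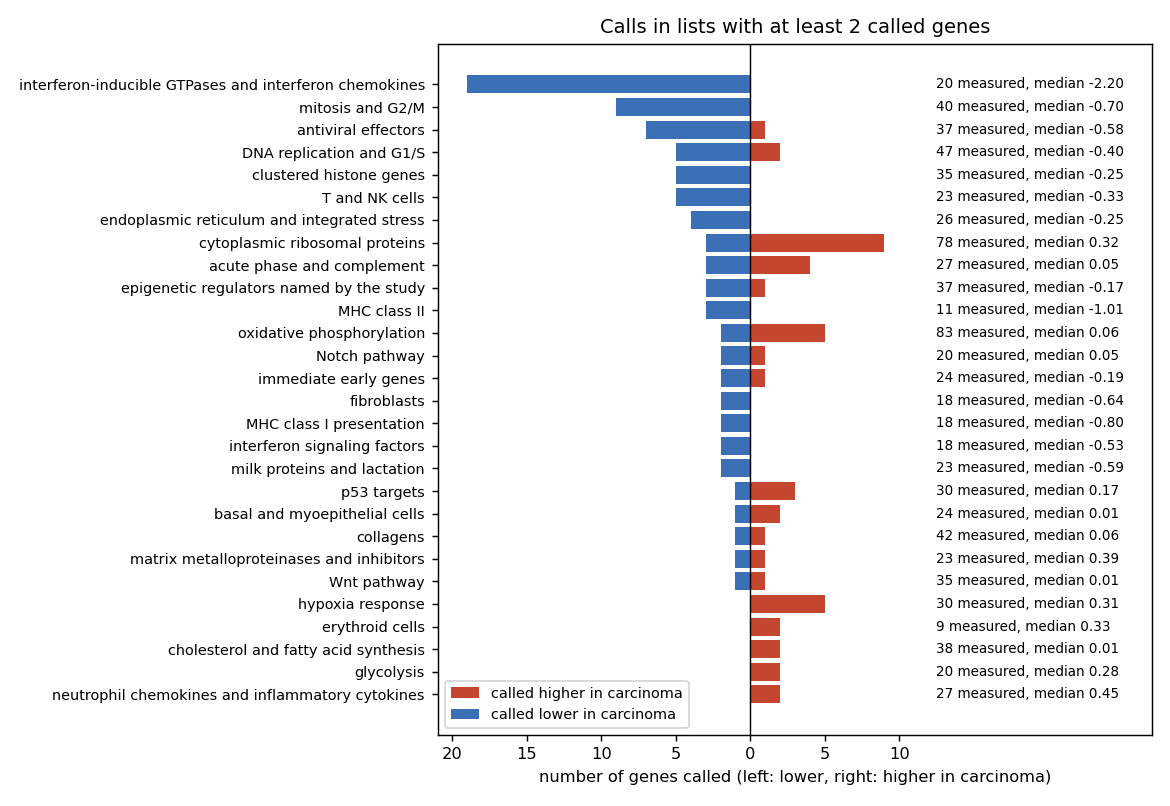
Number of genes called higher (right) and lower (left) in carcinoma for each list with at least 2 called genes, with the number of measured genes and their median log2 change at the right edge. The interferon-inducible GTPase and chemokine list has 19 lower calls among 20 genes. Ribosomal protein genes have the most higher calls by count, 9 among 78, but shorter lists such as hypoxia response have a larger share. Over all genes 1.15% were called higher and 2.14% lower.

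Developmental and invasion-related pathways each had only a few calls by count, and over all genes 1.15% were called higher and 2.14% lower. On lists this short, 1 or 2 calls can already exceed these shares. In the Notch pathway 1 of 20 genes rose and 2 fell (median 0.05). Notch2 rose by 1.02 (adjusted p = 0.0426) at 1 probe, with changes of 0.14 and -0.17 at its other probes, and was not called without replicate 6. The ligand Jag1 and the nuclear effector Rbpj each fell by 1.05 (adjusted p = 0.0243 and 0.0402). In the Wnt pathway 1 of 35 genes rose and 1 fell (median 0.01). Lgr5, a receptor for R-spondins and a stem cell marker in several epithelia, was -0.12 to 0.57 in adenoma, well above background on 2 of 5 arrays, and 0.40 to 3.19 in carcinoma. The groups overlapped and Lgr5 rose by 1.44 (adjusted p = 0.0220), with carcinoma replicates 1 and 2 far above the others. Its ligand Rspo1 was 2.21, 2.10, 4.52, 5.77 and 4.21 in the adenomas and 0.87 to 1.91, median 1.33, in the carcinomas. Rspo1 fell by 2.45 (adjusted p = 0.0485) without overlap, and was not called without replicate 6 (adjusted p = 0.0737). In the TGF-beta and BMP pathway Smad7, an inhibitor of the receptors, fell by 1.66 (adjusted p = 0.0104). It was the only call among 30 genes, a share close to the 3.3% of all genes called. Of 20 genes of epithelial-mesenchymal transition only Cdh2 was called, as lower, and it was well above background on no adenoma and 2 carcinoma arrays, so it has no fold. The list median was -0.28, and its sign turned with the processed signals (0.07) and in the deposited matrix (0.09). Mmp10, a stromelysin, rose by 1.55 (adjusted p = 0.0302), and Timp3, an inhibitor of metalloproteinases, fell by 1.15 (adjusted p = 0.0333), the latter not without replicate 6, out of 23 genes with a median of 0.39 (0.13 without replicate 6). Among 42 collagens Col9a3 rose by 1.58 (adjusted p = 0.0467) and Col1a1 fell, as given above. In cholesterol and fatty acid synthesis Ebp (1.17) and Tm7sf2 (1.13), both sterol enzymes, rose out of 38 genes.

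The study treated epigenetic regulators as a group of interest and named 37 of those measured. Since the study chose them, the list is no independent evidence of a direction. Here 1 rose, 3 fell and the median was -0.17. Setd5 was -2.08, -1.89, -1.96, -1.90 and -2.20 in the adenomas and -0.49 to 0.88, median 0.30, in the carcinomas. It rose by 2.20 (standard error 0.406, adjusted p = 0.00229) without overlap at 1 probe, while its 4 other probes changed by -0.45 to 0.50. Setd2, which trimethylates histone H3 at lysine 36, was -0.19 to 0.32 in adenoma and -1.66 to -0.83 in carcinoma. It fell by 1.15 (adjusted p = 0.00315). The methyltransferases Ehmt2 (-1.14, adjusted p = 0.0201) and Kmt5a (-1.08, adjusted p = 0.00325) fell as well, and without replicate 6 their changes of -0.91 and -0.99 were just under 2-fold. Ezh2 changed by 0.25 and was not called.

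Ribosomal protein genes had more rises in the ratio by count than any other list, and few genes of the list were called in the tumor channel alone. As a share of the list, rises were more frequent on shorter lists such as hypoxia response, and 1.15% of all genes were called higher. Of 78 genes 9 rose and 3 fell, with a median of 0.32, and without replicate 6 17 rose and 2 fell (median 0.47). The median Cy3 difference of the list was -0.21 and the median Cy5 difference -0.28, and with Cy5 alone 1 was called higher and 1 lower. Rps13 was 1.11, 0.83, 0.67, 0.65 and 1.10 in the adenomas and 1.75 to 3.39, median 2.22, in the carcinomas. Its ratio rose by 1.48 (standard error 0.276, adjusted p = 0.0024) without overlap, with a Cy3 difference of -1.01 and a Cy5 difference of -0.11, and its other probe gave a change of -0.13. For Rpl9 (1.92) and Rpl5 (1.79) the differences were -1.18 and -0.98 in Cy3 and 0.47 and 0.72 in Cy5. Ribosomal protein genes have many processed pseudogenes, with which their probes may share signal. Of 83 genes of oxidative phosphorylation 5 rose and 2 fell (median 0.06). Cox8a, a subunit of cytochrome c oxidase, was 0.24, 0.17, 0.04, 0.12 and -0.13 in the adenomas and 1.34 to 1.78, median 1.64, in the carcinomas. It rose by 1.52 (standard error 0.182, adjusted p = 0.000103), with differences of -0.71 in Cy3 and 0.45 in Cy5. None of the 5 rises of the list was called in Cy5 alone. Of 35 clustered histone genes 5 fell, H2ac15 (-2.05) and 4 H2B genes at -1.20 to -1.26 whose probes gave nearly equal values, and none of them was called without replicate 6 or with the processed signals.

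**Figure D5:**
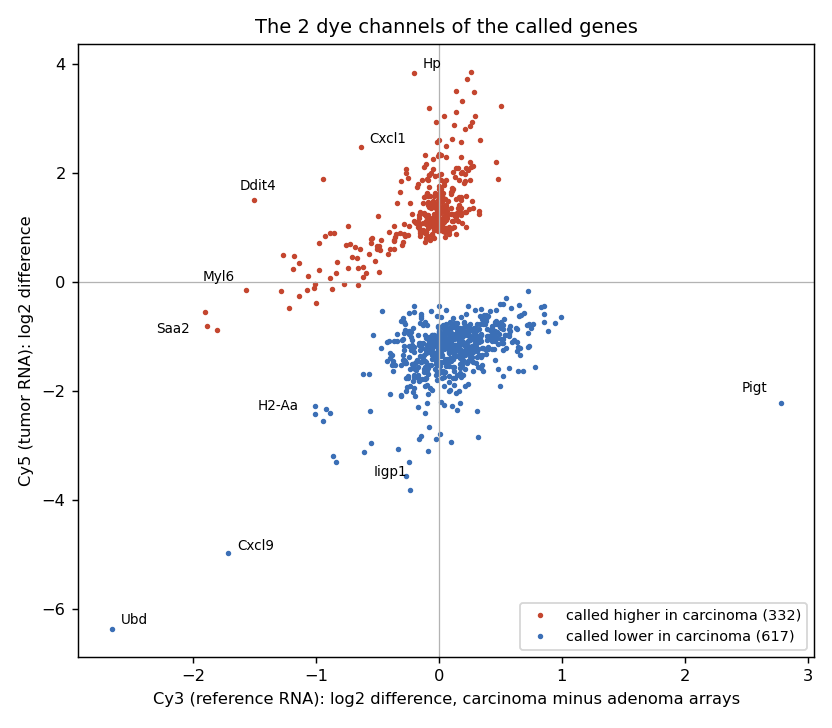
Difference between carcinoma and adenoma arrays in the Cy3 reference channel (horizontal axis, log2) and in the Cy5 tumor channel (vertical axis, log2) for the 332 genes called higher and the 617 called lower in the ratio. Ubd, Cxcl9 and Iigp1 lie low on the Cy5 axis and Hp high on it, while Myl6 and Saa2 lie left on the Cy3 axis with a Cy5 difference below 0.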

How the data were processed

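Agilent 2-colour arrays were read from the deposited scanner files, in which the authors' Feature Extraction 10.7 gave spot intensity and background per channel, with array positions on mm7. The authors also deposited a matrix of log2 ratios, background-corrected by normexp and normalized with limma by loess within and a quantile method between arrays, which served as an alternative. Intensities were corrected with normexp (offset 50), normalized by loess within arrays and by quantiles between the 22 progression arrays with limma 3.58.1 in R 4.3.3. Control spots and outlier-flagged spots (0.49 to 0.67% per array) were left out. The offset the authors used was not given in the sources used here. Of 41174 probes 22951 were named by accession through RefSeq and 18223 by the array file, and the probe with the highest mean intensity stood for each of 28786 genes, 18421 of them with a RefSeq symbol. A model of the 4 progression groups (carcinoma, adenoma, disseminated cells and lung metastases) gave the contrast with limma's moderated test and Benjamini-Hochberg adjustment, and every adjusted p given is limma's unless another setting is named. Calls required an adjusted p under 0.05 and a change of at least 2-fold. Folds are on the scale of the log2 ratio, and the number of arrays limits their precision. The rule for naming took genes called in gene lists, the 12 largest rises and falls without overlap and defining cell markers, and uncalled pathway genes were added with their values seen. A few genes are left out of the lists and not reported here. The comparison, its members and the gene lists were chosen with earlier results of these data known. Same-numbered samples of the groups had deviations correlated between -0.21 and 0.11, so the numbers did not pair them. The procedure was tested on simulated data.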

Additional observations from a re-analysis of the deposited data

Results flagged for a closer look

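In 42 of 338 groups of values the lowest or highest sample stood apart from its group, its gap to the nearest other sample being a larger part of the group's range than Dixon's 95% limit allows. Chance gives this in about 1 in 20 groups, and genes of a list are not independent of each other. Carcinoma replicate 6 was the distant sample in 30 of them.

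For list means in carcinoma, replicate 6 was the highest for macrophages (gap over range 0.77), MHC class II (0.887), neutrophils (0.807), neutrophil chemokines and inflammatory cytokines (0.742), interferon signaling factors (0.694), matrix metalloproteinases and inhibitors (0.678) and dendritic cells (0.632). It was the lowest for luminal epithelium (0.709), basal cells (0.643) and cholesterol and fatty acid synthesis (0.796). The luminal mean was 1.41 in this sample and 2.25 to 2.59 in the other carcinomas, and the MHC class II mean was 4.31 against 1.15 to 1.504. Neutrophil genes had 3.41 against 1.22 to 1.65.

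Among single genes, replicate 6 was the highest carcinoma for the macrophage genes Cd68 (0.852), Cd163 (0.809), Csf1r (0.789) and Adgre1 (0.751), with Cd163 at 4.59 against 0.29 to 1.11. It was also the highest for the class II genes H2-Eb1 (0.841), H2-Aa (0.751) and H2-DMa (0.665), for the interferon-induced Cxcl11 (0.719), Cxcl9 (0.626) and Serpina3g (0.812), and for Ccr7 (0.709), Rbpj (0.637) and Pecam1 (0.819). It was the lowest carcinoma for Myc (0.628), Phgdh (0.63), Ehmt2 (0.705), Setd2 (0.67), Tm7sf2 (0.677), Wnt4 (0.654) and Krt14 (0.64). With the macrophage list mean as a covariate, 1103 genes were called.

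The other 12 groups were spread over 7 samples. Adenoma replicate 3 was the lowest adenoma for the acute phase list (0.79), ribosomal proteins (0.78) and Csf1r (0.74) and the highest for Kmt5a (0.741). Carcinoma replicate 4 was the lowest carcinoma for glycolysis (0.669) and the highest for Smoc2 (0.707) and Ifng (0.67). Adenoma replicate 1 was the lowest for basal cells (0.715), adenoma replicate 2 the highest for endoplasmic reticulum and integrated stress (0.77), and adenoma replicate 4 the highest for Pecam1 (0.87). Stat2 was highest in carcinoma replicate 5 (0.656), and Rpl9 was lowest in carcinoma replicate 1 (0.851), at 0.26 against 1.44 to 1.65.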

How the results depend on the processing

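Slide and scan day were confounded with stage, and 1 carcinoma differed from the rest. Adenoma replicates 1, 3 and 4 had fewer spots well above background than any carcinoma, whereas adenoma replicates 2 and 5 did not. Of 103 named called genes 38 were called under all 30 alternatives that kept the thresholds. With the Cy5 channel alone the sign turned for 1 of them, Rps13 (-0.11, adjusted p = 0.617), and also for Lcn2 (-0.15), Saa2 (-0.81) and Myl6 (-0.155), which the rule did not name. The count of called genes (949) became 448 at an adjusted p under 0.01, 3361 without a fold threshold and 1538 by fold alone, and 645 to 992 when 1 replicate was left out. Genes called higher (332) became 665 with processed signals, 511 with array weights, 125 at 0.01, 1988 without a fold threshold, 651 by fold alone, 523 by unadjusted p and 2-fold, and 212 to 391 when 1 replicate was left out. Genes called lower (617) became 955 with every probe tested, 323 at 0.01, 1373 without a fold threshold and 433 to 653 when 1 replicate was left out. Without carcinoma replicate 6, the 950 calls became 1660 with Aquantile or no normalization between arrays (592 higher, 1068 lower), 447 at 0.01 (164 and 283), 3373 without a fold threshold (2134 and 1239) and 1595 by fold alone (710 and 885), and 699 to 988 with a further replicate left out. In that comparison the higher calls became 715 with processed signals, 595 by unadjusted p and 2-fold and 271 to 398 with a further replicate left out, and the lower calls 891 with every probe tested and 420 to 623. The cause was not tested. With the replicate number as a block, which does not pair these samples, 827 genes were called (293 higher, 534 lower), and 922 without carcinoma replicate 6. With slide as a random block 900 were called (correlation within slides 0.06), with the macrophage mean as a covariate 1103, and with outlier spots kept, a setting chosen after seeing the data, 954. Of 39 list medians 1 changed sign without carcinoma replicate 6 (macrophages, -0.10), 3 with processed signals, 2 with no normalization between arrays and 5 with the deposited matrix.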

Other observations

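Adenoma replicates 3 and 4 had 51.1 and 48.4% of spots well above background in the Cy5 channel, against 67.5 to 76.7% in carcinoma. Counts of genes detected in only 1 group depend on this, and its part in them was not tested. Genes well above background on all carcinoma arrays and on no adenoma array numbered 21, and none had the opposite pattern. For these the difference is a lower bound, taken in the Cy5 channel as the carcinoma mean against, on each adenoma array, the higher of the dimmest signal still well above background and the probe's own signal. Only Cthrc1, a secreted collagen triple helix repeat protein, was also called, and it was at least 1.82-fold higher in carcinoma (adjusted p = 0.00236).

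Called genes were spread over all chromosomes, with shares from 2.32% of the genes on chromosome 14 to 4.94% of those on chromosome 17, which carries the MHC. Chromosome 15 had 4.25% and chromosome 11, which carries the immunity-related GTPases Igtp, Irgm1 and Tgtp1, had 4.17%, against 3.3% of all genes. The part of these gene families in the shares was not tested.

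The letters TTTCGCGC or TTTGGCGC, which match E2F sites, were found on either strand in 3.22% of promoters of genes called lower, in 1.58% of those of genes called higher and in 1.15% of all promoters. The letters TTCNNNGAA, bound by Stat factors, occurred in 38.5% of promoters of the called interferon-inducible GTPases and chemokines and in 7.62% of all. That list was chosen as interferon-inducible, so its share is no independent evidence for the falls. The letters GGG, any pair of bases and TTTCC, bound by NF-kappaB, occurred in 2.37% of promoters of genes called higher, 2.21% of those called lower and 1.54% of all, and TATAAA in 11.1%, 9.46% and 11.4%.

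Without carcinoma replicate 6, the luminal genes Spdef, an Ets factor of secretory epithelium, and Cldn3, a tight junction protein, rose by 1.70 (adjusted p = 0.0168) and 1.25 (adjusted p = 0.0339). With all carcinomas their changes were 1.18 and 0.99 and neither was called, replicate 6 being the lowest carcinoma for both.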
